A study of Mus musculus with 4 samples.

Results

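The collagen gene family was followed across cell classes of mouse limb bone marrow, in controls and in mutants of the RNA methyltransferase gene Mettl3. The family was taken as all genes whose symbol is Col, a number, a and a number, which gave 44 members of the 32285 genes counted. By the structure of their products, 11 members are fibrillar collagens, 9 form networks, 9 are FACIT collagens (fibril-associated collagens with interrupted triple helices) and 15 were kept as other types. Marrow was taken from limb bones of C57BL/6 mice at postnatal day 12, from 3 control and 3 mutant mice, and live cells without CD45 or Ter119, both markers of blood cells, were sorted and sequenced with 10x Genomics 3′ reagents (version 3.1). The libraries are called control 1, control 2, mutant 1 and mutant 2, and libraries are listed in this order wherever 4 values follow each other. The mutant genotype is Prx1-cre;Mettl3-fl/fl. The Prx1 promoter drives Cre in limb bud mesenchyme, the source of limb bone, cartilage and marrow stroma, and METTL3 is the enzyme of the writer complex for N6-methyladenosine, a mark on RNA. The genotype of mutant 2 is labelled only as mutant and that of the controls only as control. How the mice were divided among the libraries is not given, so every p-value reflects differences among libraries, which may be technical in part. Control 1 and mutant 1 form batch 1 and control 2 and mutant 2 form batch 2, as the submitters' notes give 2 versions of the read-processing software.

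Collagens are triple helices of 3 chains, made in the endoplasmic reticulum with hydroxylated prolines and lysines, exported as procollagens and then trimmed and crosslinked outside the cell. Fibrillar collagens build the tensile fibrils of bone (type I) and cartilage (type II), with the type V and XI chains setting fibril nucleation and width. Network collagens form sheets such as the type IV scaffold of basement membranes and the type X matrix of hypertrophic cartilage, and FACIT collagens coat the surface of fibrils. Among the other types, collagen VI forms beaded filaments around cells, collagens XV and XVIII sit in basement membrane zones, and collagens XIII, XXIII and XXV span the cell membrane.

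The promoters below belong to the members on which the results turn: the chain genes with the largest fall (Col11a2, Col15a1), a chain gene of bone collagen (Col1a2) and the type IV pair (Col4a1, Col4a2), whose starts face each other on chromosome 8. Each window runs from 250 bases before to 50 bases after the annotated start, 5′ to 3′ on the gene's strand, from RefSeq on GRCm38.p6. Capitals mark the core of the TATA box (TATAAA), the core of the GC box (GGGCGG) and the CCAAT box (CCAAT), or the reverse complement of any of these. The windows are chr17:34038888-34039187 (plus strand) for Col11a2, chr4:47207762-47208061 (plus) for Col15a1, chr6:4505368-4505667 (plus) for Col1a2, chr8:11312777-11313076 (minus) for Col4a1 and chr8:11312555-11312854 (plus) for Col4a2.
Col11a2: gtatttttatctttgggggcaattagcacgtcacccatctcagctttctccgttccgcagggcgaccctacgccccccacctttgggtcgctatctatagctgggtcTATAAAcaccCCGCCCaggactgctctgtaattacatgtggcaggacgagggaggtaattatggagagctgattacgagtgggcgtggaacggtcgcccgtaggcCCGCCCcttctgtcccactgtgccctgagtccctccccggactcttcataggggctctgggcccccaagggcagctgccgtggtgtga
Col15a1: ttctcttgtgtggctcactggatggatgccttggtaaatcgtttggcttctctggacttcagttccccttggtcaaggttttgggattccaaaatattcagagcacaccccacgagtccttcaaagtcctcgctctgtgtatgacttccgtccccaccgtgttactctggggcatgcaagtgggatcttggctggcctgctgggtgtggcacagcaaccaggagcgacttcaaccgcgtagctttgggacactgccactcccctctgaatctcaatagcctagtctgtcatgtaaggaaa
Col1a2: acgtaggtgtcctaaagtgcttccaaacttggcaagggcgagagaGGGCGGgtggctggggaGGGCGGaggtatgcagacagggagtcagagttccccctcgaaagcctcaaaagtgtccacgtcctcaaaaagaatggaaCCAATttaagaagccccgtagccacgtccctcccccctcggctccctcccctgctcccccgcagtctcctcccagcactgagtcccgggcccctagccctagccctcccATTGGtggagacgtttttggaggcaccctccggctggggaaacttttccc
Col4a1: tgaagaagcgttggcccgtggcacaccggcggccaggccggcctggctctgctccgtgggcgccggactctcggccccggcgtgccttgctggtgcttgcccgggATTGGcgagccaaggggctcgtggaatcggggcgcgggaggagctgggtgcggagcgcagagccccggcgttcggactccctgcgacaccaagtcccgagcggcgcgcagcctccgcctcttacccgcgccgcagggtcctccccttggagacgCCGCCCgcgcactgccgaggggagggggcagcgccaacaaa
Col4a2: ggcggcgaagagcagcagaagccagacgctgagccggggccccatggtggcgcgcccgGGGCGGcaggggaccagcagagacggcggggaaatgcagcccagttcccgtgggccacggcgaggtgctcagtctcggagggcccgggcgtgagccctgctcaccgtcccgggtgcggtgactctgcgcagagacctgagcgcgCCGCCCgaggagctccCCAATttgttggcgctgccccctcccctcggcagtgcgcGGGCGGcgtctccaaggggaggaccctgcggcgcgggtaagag
The Col11a2 window held 1 TATAAA and 2 GC box cores, that of Col1a2 held 2 GC box cores and 2 CCAAT, and that of Col15a1 held none of these letters. The Col4a1 window held 1 GC box core and 1 CCAAT, and the Col4a2 window 3 and 1. These windows overlap, and the GC box core of Col4a1 is 1 of the 3 of Col4a2, read on the other strand. RefSeq gave 38 windows for 35 members. Of these, 23 held a GC box core (60.5%, against 35.7% of all 32851 windows), 13 held CCAAT (34.2% against 37.4%) and 5 held TATAAA (13.2% against 13.6%). The letters GGACT, a core of the motif that the Mettl3 complex methylates, occurred in the longest annotated transcript of the 44 members at a median of 1.69 per kilobase, against 1.01 over 21901 protein-coding genes. These matches describe letters in a window and not sites in use.

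The files held 116863081, 114143361, 47390414 and 81890483 UMIs (unique molecular identifiers, each 1 captured transcript), and 5538, 3529, 2573 and 4419 cells were kept. Cells were assigned to classes by markers that include no collagen gene, which gave 250, 42, 1822 and 1169 osteolineage-like (bone) cells, 996, 49, 43 and 14 stromal-like cells, 15, 8, 7 and 19 chondrocyte-like cells and 26, 547, 46 and 875 endothelial-like cells. All 15 osteolineage, all 12 stromal and all 13 endothelial markers held UMIs in their class in every library. In chondrocyte-like cells 2 to 4 of 12 chondrocyte markers were at 0. Cells were selected on these same lists, so these counts do not test the names of the classes. Bone cells were split into mature osteoblast-like cells rich in Bglap (61, 24, 186 and 217), osteocyte-like cells with Mepe and Dmp1 (43, 6, 520 and 348) and remaining Bglap-low bone cells (146, 12, 1116 and 604). Mettl3 stood at 6.76, 10.3, 3.81 and 6.08 CPM (counts scaled to a common total of the class) in osteolineage-like cells, and these 3′ tags need not cover the floxed exons. Of the 44 members, 41 had a UMI in osteolineage-like cells (Col6a4, Col6a6 and Col19a1 had none), 40 in stromal-like, 29 in chondrocyte-like and 36 in endothelial-like cells.

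Collagen transcripts took up a large share of the RNA of bone cells, and that share was lower in both mutants. In osteolineage-like cells collagens made up 16.6%, 18.2%, 6.48% and 8.59% of UMIs, so both mutants lay below both controls. The means were 17.4% ± 1.15 and 7.54% ± 1.49 (SD, n = 2 libraries each), a difference of -9.88 percentage points (two-sided exact permutation p = 0.33, the smallest that 2 libraries against 2 allow). The order was the same within each bone subtype. Mature osteoblast-like cells gave 20.8%, 20.2%, 12.9% and 14.8%, osteocyte-like cells 17.2%, 18.4%, 7.03% and 8.25%, and Bglap-low bone cells 14.6%, 13.3%, 4.92% and 6.28%. Chondrocyte-like cells gave 5.49%, 8.31%, 2.89% and 3.21%, again with both mutants below both controls. In stromal-like cells the shares were small and ran the other way, at 0.807%, 0.817%, 1.28% and 1.07%. Endothelial-like cells overlapped between genotypes, at 0.616%, 0.388%, 1.05% and 0.589% (two-sided exact permutation p = 0.667). Erythroid-like cells, not known as a source of collagen and used as the comparison for free RNA, held 0.0412%, 0.0198%, 0.0351% and 0.242%, highest in mutant 2. Col5a1 stood at 74.1, 67.9, 43.1 and 61.8 CPM in them and was not highest in mutant 2. The part of free RNA in the erythroid-like share was not tested.

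**Figure D1:**
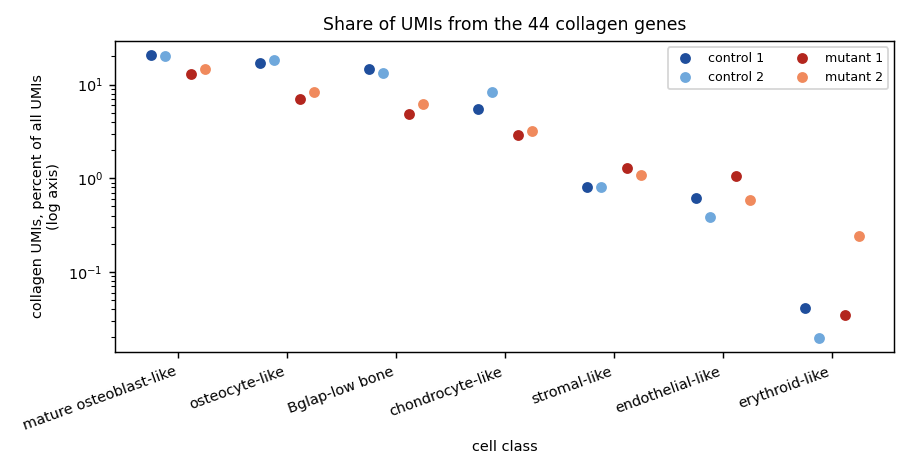
Collagen UMIs as a percent of all UMIs (log axis) in each cell class, with 1 point per library. In the 3 bone subtypes and in chondrocyte-like cells both mutants lie below both controls, from 20.8% down to 2.89%, and the erythroid-like points at or under 0.242% show the comparison class.

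Almost all of the bone share came from fibrillar collagens, at 16.5%, 18.1%, 6.36% and 8.44% of osteolineage UMIs, while network collagens gave 0.0013%, 0.000561%, 0.00883% and 0.00714%. Chondrocyte-like cells were the class of network collagen, mainly the hypertrophic cartilage gene Col10a1, with a network share of 4.45%, 6.84%, 2.02% and 2.14%. Endothelial-like cells took most of their collagen from the network group as well, at 0.510%, 0.322%, 0.906% and 0.482%. Stromal-like cells held fibrillar shares of 0.395%, 0.403%, 0.941% and 0.755% and network shares of 0.184%, 0.177%, 0.158% and 0.166%.

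**Figure D2:**
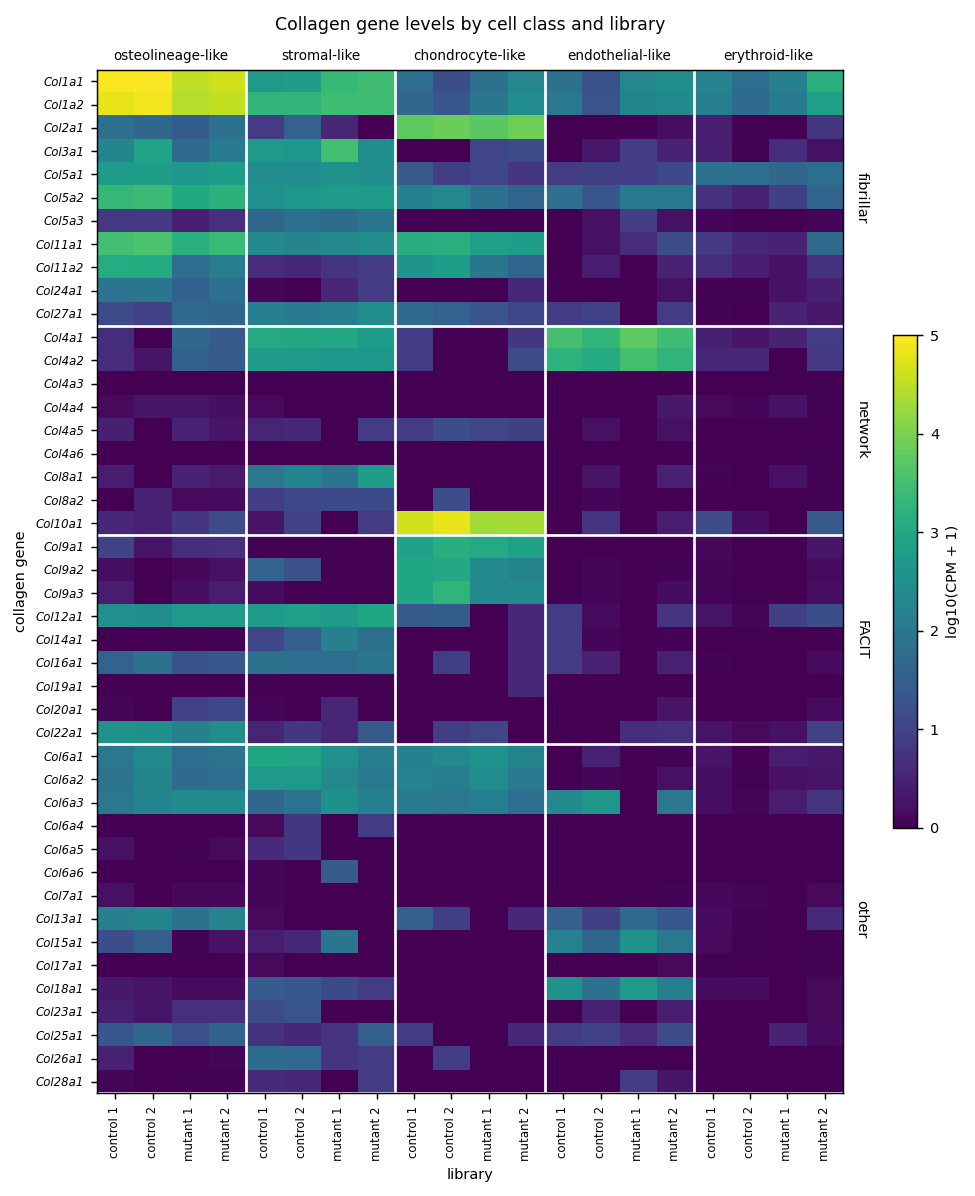
Level of each of the 44 collagen genes (rows, by structural group) in 5 cell classes and 4 libraries (columns), as log10 of CPM plus 1. Col1a1 and Col1a2 are bright in osteolineage-like cells, Col2a1, the Col9 genes and Col10a1 in chondrocyte-like cells, and Col4a1 and Col4a2 in endothelial-like and stromal-like cells.

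Against bone cells of the same libraries, endothelial-like cells held almost no fibrillar collagen and far more of the basement membrane collagens. Of 24 members tested, 4 were higher and 19 lower in endothelial-like cells (edgeR quasi-likelihood test with Benjamini-Hochberg adjustment, 4 libraries, library as a block), where 45.7% of all 11484 genes tested passed in either direction. All 11 fibrillar members were lower. The higher members were the type IV chains Col4a1 (log2 difference 7.32 ± 0.64 SE, edgeR adjusted p = 6.85e-06) and Col4a2 (6.59 ± 0.52, edgeR adjusted p = 3.37e-06), Col18a1, whose product yields endostatin (8.23 ± 0.44, edgeR adjusted p = 3.12e-07), and Col15a1 (4.54 ± 1.51, edgeR adjusted p = 0.031). Col15a1 no longer passed without control 1 (5.67) or without mutant 2 (3.34). Among the lower members, Col27a1 (-2.64) and Col5a3 (-2.80) did not pass without mutant 2, at -2.05 and -2.37, and Col10a1 (-2.47) did not pass without control 1, at -2.46. Col6a3 did not differ beyond the spread between libraries (-1.15 ± 0.74, edgeR adjusted p = 0.238).

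Chondrocyte-like cells carried the cartilage set. Only control 1 and mutant 2 had at least 10 chondrocyte-like cells, and over these 2 libraries 5 of 26 tested members were higher and 10 lower than in bone cells, where 13.0% of 10449 genes passed. The higher members were Col2a1, the cartilage fibril gene (6.19 ± 1.34, edgeR adjusted p = 0.000104), the 3 type IX chains Col9a1 (6.57 ± 0.67), Col9a2 (8.76 ± 0.69) and Col9a3 (7.83 ± 0.66), and Col10a1 (11.86 ± 3.05, edgeR adjusted p = 0.00168). Col11a2, whose chain joins cartilage and bone fibrils alike, was lower (-2.09 ± 0.66, edgeR adjusted p = 0.0167). Col1a1 stood at -9.31 ± 4.29 and did not pass (edgeR adjusted p = 0.153). Neither library can be left out of this comparison.

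Stromal-like cells, marked by Cxcl12, Lepr and Adipoq, had a collagen set of their own in the 2 control libraries. Of 30 members tested, 13 were higher and 14 lower than in bone cells, where 48.3% of 11239 genes passed. All 4 tested network genes were higher, with Col4a1 at 7.89 ± 0.33 and Col4a2 at 6.79 ± 0.32, and so were Col8a1 (5.69 ± 0.38), a short-chain network collagen, and Col14a1 (8.16 ± 1.22), a FACIT collagen of soft connective tissue. The collagen VI chains split: Col6a1 (1.77 ± 0.22) and Col6a2 (1.29 ± 0.22) were higher while Col6a3, which joins them in 1 molecule, was lower (-1.86 ± 0.23). Col1a1 (-8.23 ± 0.26) and Col1a2 (-6.08 ± 0.23) were lower, by unequal amounts. Col3a1 was called lower at -0.60 ± 0.23 and lost that call with DESeq2 (-0.72, adjusted p = 0.754) and with no filter on low counts. Its CPM was higher in stromal-like than in bone cells of control 1 and lower in those of control 2. In control 2, 1 of 42 bone cells gave 20.8% of its UMIs.

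The 43 and 14 stromal-like cells of the mutants are described without a test, since none was planned for this class by genotype. Cxcl12 stood at 21120, 17740, 5537 and 6966 CPM there and Lepr at 1230, 974, 215 and 243 CPM. Col1a1 stood at 478, 609, 2203 and 2959 CPM and Col6a1 at 926, 834, 334 and 137 CPM. Both mutants lay above both controls for Col1a1, the bone fibril gene, and below both for Col6a1, the beaded filament gene. Erythroid-like cells held Col1a1 at 163, 62.1, 153 and 1482 CPM, so the background was highest in mutant 2. The stromal-like cells of the genotypes also lie apart in clustering: the stromal cluster held 995 and 49 cells of the controls but 3 and 8 of the mutants, and its part in these values was not tested. Col4a1 stood at 1158, 1089, 1049 and 637 CPM, with both mutants below both controls and mutant 1 close to control 2. Col26a1, a little-studied secreted collagen, stood at 56.6, 49.4, 4.84 and 6.24 CPM, 10.7-fold lower in the pooled mutant cells (95% counting interval 3.65 to 52.4). Col3a1 stood at 476, 414, 3037 and 312 CPM, and 3 of 43 cells gave 68.9% of its UMIs in mutant 1. The summed level of 15 osteolineage markers in these cells was 1739, 1860, 2558 and 3371 CPM, but single markers went both ways. Olfml2b stood at 486, 499, 1175 and 1286 CPM, Ibsp at 698, 576, 677 and 512 and Runx2 at 256, 294, 99.1 and 150. Mural markers did so too, with Tagln at 14.4, 19.2, 447 and 87.4 CPM and Pdgfrb at 752, 576, 232 and 418. The part of such markers in the collagen values was not tested.

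Most fibrillar and many other collagen genes fell in mutant bone cells, while type IV chains, Col20a1, Col27a1, Col12a1 and Col6a3 rose. Col10a1 was called higher too. Its bone level lay below that of erythroid-like cells in control 1 and mutant 2 and above it in control 2 and mutant 1. Of 31 members tested by genotype in osteolineage-like cells, 16 fell and 7 rose (edgeR quasi-likelihood test, batch and genotype as terms), where 24.0% of all 12799 genes tested passed. The median log2 difference (mutant minus control) of the 31 members was -0.77 against 0.03 over all genes tested. By group, 9 of 11 fibrillar members fell and 1 rose, 3 of 6 network members rose, 2 of 6 FACIT members fell and 2 rose, and 5 of 8 other members fell and 1 rose. The fit has 1 residual degree of freedom and all genes of like abundance shared 1 estimate of spread, so small p-values rest on that. Marker levels moved with genotype beside these results: Bglap, a late osteoblast gene, stood at 17170, 41920, 3268 and 5822 CPM and Ibsp, a bone sialoprotein gene, at 8513, 6554, 22790 and 15920 CPM, and their part in the collagen differences was not tested.

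Bone cells also fell into clusters in unequal proportions. In batch 1, cluster 2 held 57 of 250 osteolineage-like cells of control 1 and 807 of 1822 of mutant 1, and cluster 8 held 181 and 732. In batch 2, cluster 4 held 40 of 42 cells of control 2 and 959 of 1169 of mutant 2. Within each of these 3 clusters Col1a1 and Col11a2 were lower in the mutant of the batch. Col1a1 stood at 19130 in control 1 against 11540 CPM in mutant 1 in cluster 2, at 100700 against 53880 in cluster 8 and, in batch 2, at 93970 against 46580 in cluster 4. Col11a2 stood at 90.02 against 8.02, 1460 against 117 and 1215 against 136 CPM in the same order.

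Other members differed by cluster. Col4a1 stood at 16.4 against 101 CPM in cluster 2 and 0 against 25.5 in cluster 4, but at 1.24 against 1.58 in cluster 8, from 6 and 30 UMIs. Cluster 13, with 10 cells of control 1, 276 of mutant 1 and 160 of mutant 2, held Col4a1 at 0, 0.683 and 12.8 CPM and Col5a2 at 230, 296 and 184 CPM. Col6a3 stood at 456 against 432 CPM in cluster 2, at 30.4 against 83.8 in cluster 8 and at 185.5 against 238 in cluster 4. Col5a2 stood at 594 against 705 CPM in cluster 2, higher in the mutant, and at 2456 against 1516 in cluster 8 and 2578 against 1727 in cluster 4. Col20a1 was above its control in all 3 clusters, at 0 against 2.92, 0.207 against 11.8 and 0 against 10.4 CPM. Col15a1 was at 0 in both libraries of cluster 2, at 16.7 against 0.158 CPM in cluster 8 and at 32.5 against 0.558 in cluster 4. These values have no test, and the part of cluster makeup in the differences of the whole class was not tested.

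Type I collagen, the main fibril of bone, fell in both of its chains by the same amount. Col1a1 (ENSMUSG00000001506, mm10 chr11:94936224-94953042, plus strand) stood at 87688.5, 93424, 33088.4 and 43909.7 CPM, and Col1a2 (ENSMUSG00000029661, chr6:4504814-4541544, plus strand) at 69568.3, 78134.3, 27258.3 and 35438.3 CPM. Both mutants lay below both controls for each gene. Col1a1 fell by 1.40 on the log2 scale (SE 0.14, edgeR adjusted p = 2.01e-22), and by 1.41 in batch 1 and 1.09 in batch 2 as plain CPM ratios. Col1a2 fell by 1.40 (SE 0.14, edgeR adjusted p = 6.79e-22). The ratio of Col1a1 to Col1a2 UMIs was 1.26, 1.20, 1.21 and 1.24, so the balance of the chains differed by less than the spread between controls. These calls were lost when any 1 library was left out (Col1a1 -1.48 to -1.30, Col1a2 -1.46 to -1.31) and without the batch term (both -1.40).

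Col1a1 was called lower in all 3 bone subtypes. In mature osteoblast-like cells Col1a1 stood at 108701, 105556, 67269.7 and 76482.1 CPM, a fall of 0.60 (SE 0.11, edgeR adjusted p = 0.0175). In osteocyte-like cells it stood at 92193, 90277.7, 36785.5 and 42981.4 CPM and fell by 1.33 (SE 0.34, edgeR adjusted p = 0.00312). In Bglap-low bone cells it stood at 77493.2, 66094.5, 24439.4 and 31327.1 CPM and fell by 1.42 (SE 0.22, edgeR adjusted p = 5.94e-09). Both mutants lay below both controls in each subtype, and whether the subtypes differ in size was not tested. Markers moved with genotype inside the mature osteoblast-like gate too, with Bglap at 52960, 61030, 15680 and 18130 CPM and Ibsp at 2934, 1344, 19470 and 10020 CPM. Progenitor markers went both ways. Tnc stood at 96.1, 145, 1064 and 931 CPM and Omd at 130, 263, 102 and 55.4 CPM. Olfml2b and Ccn2 were higher in both mutants, and Postn, Aspn and Tnn overlapped between genotypes. Their part in the collagen differences was not tested. Without 1 library Col1a1 ranged from -0.78 to -0.43 in mature osteoblast-like cells and from -1.69 to -1.21 in Bglap-low bone cells and passed in none of these fits, and in osteocyte-like cells it did not pass without control 1 (-1.24) or control 2 (-1.44). Across all members, 6 of 23 tested fell and 4 rose in mature osteoblast-like cells (5.01% of 9948 genes passed), 10 of 23 fell and 2 rose in osteocyte-like cells (7.49% of 10141) and 12 of 28 fell and 6 rose in Bglap-low bone cells (20.9% of 11806).

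**Figure D3:**
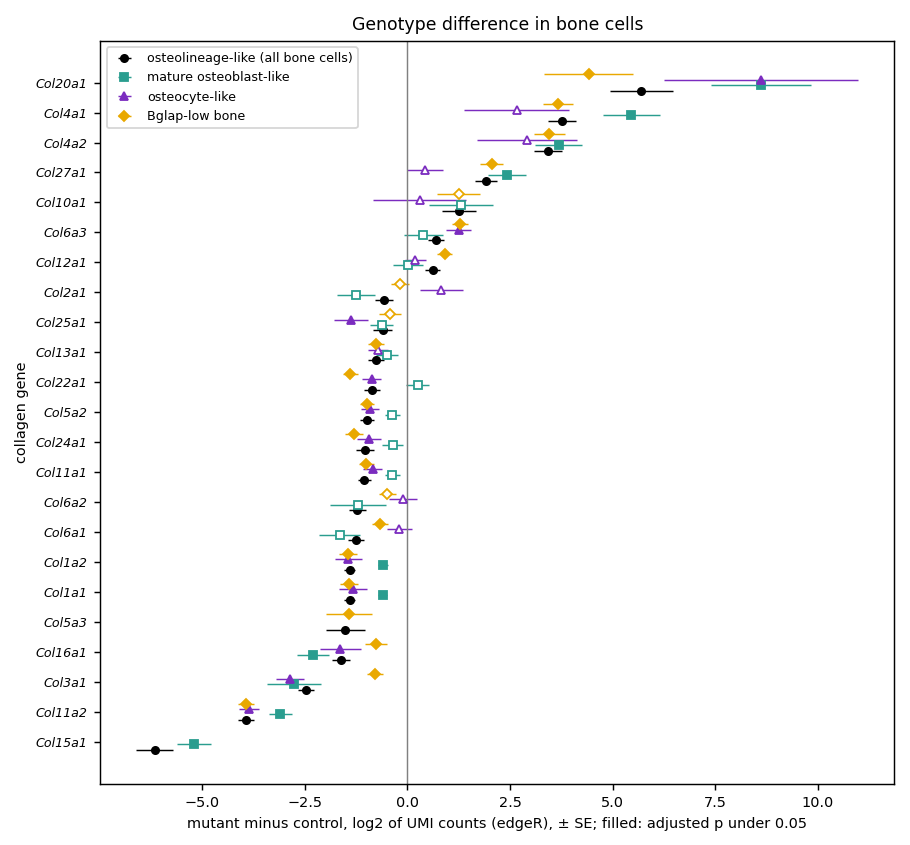
Log2 difference (mutant minus control, edgeR, with SE) of the collagen genes that passed in bone cells, for all osteolineage-like cells and 3 subtypes. Filled symbols passed the adjusted threshold, with Col11a2 near -3.93 and Col15a1 near -6.15 at the low end and Col20a1 at the high end.

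Col11a2 fell most steadily of the family, and its partner chain Col11a1 fell by less. Its product, the α2 chain of type XI collagen, pairs with the Col11a1 product to nucleate thin fibrils. Col11a2 (ENSMUSG00000024330, chr17:34039437-34066685, plus strand) stood at 1242, 1195, 62.9 and 127 CPM in osteolineage-like cells. Both mutants lay far below both controls, by 12.8-fold in mean CPM. The log2 difference was -3.93 ± 0.20 (edgeR adjusted p = 4.16e-84), with -4.30 in batch 1 and -3.23 in batch 2. Col11a1 stood at 3258, 3799, 1498 and 2384 CPM, and fell by 1.05 (SE 0.16, edgeR adjusted p = 3.17e-09). The ratio of Col11a1 to Col11a2 UMIs was therefore 2.62 and 3.18 in controls and 23.8 and 18.8 in mutants. Of the 23 members called in osteolineage-like cells, only Col11a2 passed in all 11 alternative fits.

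The same gap was measured inside each subtype. The ratio was 2.36, 3.25, 19.4 and 17.5 in mature osteoblast-like cells, 2.75, 2.25, 22.2 and 18 in osteocyte-like cells and 2.78, 3.70, 27.9 and 20.3 in Bglap-low bone cells. Controls and mutants did not overlap in any subtype. Col11a2 fell by 3.09 (SE 0.28, edgeR adjusted p = 0.000904) in mature osteoblast-like cells, by 3.86 (SE 0.24, edgeR adjusted p = 3.02e-54) in osteocyte-like cells and by 3.93 (SE 0.20, edgeR adjusted p = 2.66e-84) in Bglap-low bone cells, where the call was lost without control 1 (-3.52). With each cell thinned to 1000 UMIs, a Col11a2 UMI was found in 50% of osteolineage-like cells of control 1 (95% exact interval 43.6 to 56.4) and 50% of control 2 (34.2 to 65.8), while the mutants gave 4.39% (mutant 1, 3.50 to 5.43) and 9.15% (mutant 2, 7.56 to 10.9). These intervals cover counting error only. Unthinned shares were 82.0%, 85.7%, 34.0% and 46.4%, at median depths of 22710.5, 23883, 20254 and 20245 UMIs per cell. Erythroid-like cells held one in 0.411%, 0.0755%, 0% and 1.77% of cells after thinning, so the mutant bone cells lay above this background. The median depths of erythroid-like cells were 21198, 30949.5, 11653 and 13187 UMIs.

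**Figure D4:**
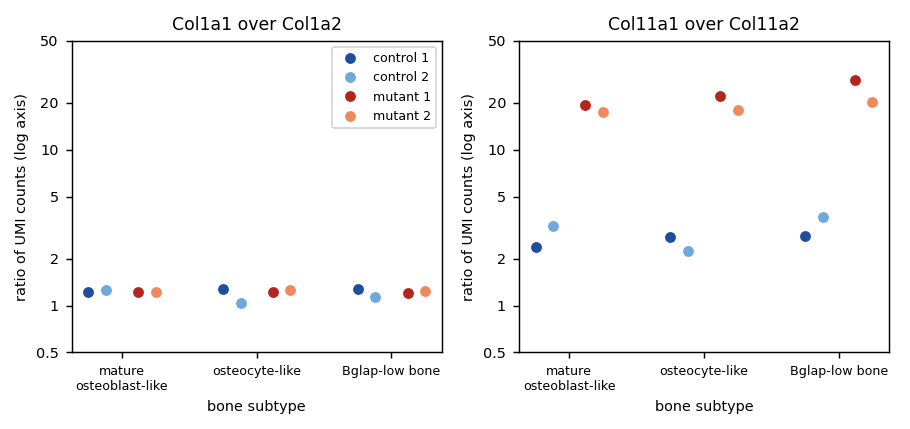
Ratio of UMI counts of paired chain genes (log axis) in 3 bone subtypes, 1 point per library. Col1a1 over Col1a2 stays between 1.04 and 1.28 in all libraries, while Col11a1 over Col11a2 lies at 2.25 to 3.70 in controls and 17.5 to 27.9 in mutants.

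The type V and type III genes fell less evenly. Col5a2, a chain of the collagen that starts type I fibrils, stood at 2150, 2552, 1078 and 1621 CPM and fell by 0.98 (SE 0.16, edgeR adjusted p = 8.42e-08). Its partner Col5a1 stood at 591, 644, 456 and 595 CPM, where mutant 2 overlapped the controls, and did not pass (-0.40 ± 0.18, edgeR adjusted p = 0.0797). Col5a3 stood at 5.89, 5.61, 1.66 and 3.80 CPM, a fall of 1.51 (SE 0.47). Within cluster 2 Col5a2 was higher in mutant 1 than in control 1, at 705 against 594 CPM. The ratio of Col5a2 to Col5a1 UMIs was 3.64, 3.97, 2.36 and 2.72. Col3a1, a fibril gene of soft tissue and vessels, stood at 185, 837, 56.1 and 112 CPM, and both mutants lay below both controls, with control 2 far above the rest. It fell by 2.47 (SE 0.20, edgeR adjusted p = 2.82e-33). In mature osteoblast-like cells of control 2, 3 of 24 cells gave 49.6% of the Col3a1 UMIs. In osteocyte-like cells Col3a1 stood at 161, 0, 6.85 and 39.8 CPM, and its log2 difference there turned from -2.85 to 0.17 with DESeq2 and to 9.73 without control 1.

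The remaining fibrillar genes went in both directions. Col24a1, a minor fibrillar collagen of bone, stood at 79.7, 91.7, 34.1 and 66.1 CPM and fell by 1.03 (SE 0.21). Col27a1, a fibrillar collagen of cartilage, rose instead: it stood at 13.2, 8.42, 50.9 and 42.9 CPM, both mutants above both controls, a log2 difference of 1.92 ± 0.26 (edgeR adjusted p = 1.27e-11). It rose also in mature osteoblast-like cells (2.42 ± 0.46) and Bglap-low bone cells (2.05 ± 0.28), and stood at 0.42 ± 0.44 in osteocyte-like cells, which did not pass. Col2a1 stood at 68.1, 45.8, 29.0 and 72.1 CPM with overlapping genotypes, and its call (-0.57 ± 0.22, edgeR adjusted p = 0.0434) was lost in all 11 alternative fits.

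Without 1 library, several fibrillar calls were lost. Col5a2 ranged from -1.15 to -0.79, Col11a1 from -1.26 to -0.82 and Col5a3 from -1.85 to -0.88, and none of these passed in any such fit. Col3a1 did not pass without control 1 (-3.41), mutant 1 (-2.40) or control 2 (-1.41), and Col24a1 not without the same libraries (-0.96, -0.62 and -0.93). Col27a1 did not pass without control 1 (2.44) or control 2 (1.62). Col2a1 turned to 0.04 without control 1 and to 0.03 without mutant 1. In the subtypes, Col27a1 did not pass in mature osteoblast-like cells without control 1 (2.02), mutant 1 (1.96) or control 2 (2.62), nor in Bglap-low bone cells without control 1 (2.09) or control 2 (1.82).

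The basement membrane chains rose in mutant bone cells from very low control levels. Col4a1 (ENSMUSG00000031502, chr8:11198423-11312826, minus strand) stood at 3.46, 0, 43.7 and 26.7 CPM, from 20, 0, 1660 and 681 UMIs. Col4a2 (ENSMUSG00000031503, chr8:11312805-11449287, plus strand) stood at 3.29, 0.936, 33.9 and 27.8 CPM. Both mutants lay above both controls for each chain. Col4a1 rose by 3.76 (SE 0.34, edgeR adjusted p = 7.29e-26) and Col4a2 by 3.42 (SE 0.34, edgeR adjusted p = 1.55e-21). In batch 1 the Col4a1 difference lay in cluster 2 (16.4 against 101 CPM) and was small in cluster 8 (1.24 against 1.58 CPM). Over pooled UMIs Col4a1 was 12.6-fold higher in mutants (95% counting interval 8.15 to 20.7) and Col4a2 10.8-fold (6.95 to 17.7). Without control 1 neither passed (12.58 and 5.0), and without control 2 Col4a1 did not pass (3.14).

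Several values moved beside the type IV result. A Col4a1 UMI was found in 300 of 1822 osteolineage-like cells of mutant 1 and 236 of 1169 of mutant 2. After thinning the shares were 0.40%, 0%, 4.78% and 3.59%, against 0.206%, 0.0378%, 1.01% and 3.72% of erythroid-like cells, so the share in mutant 2 did not exceed the background. Unthinned shares were 4.80%, 0%, 16.5% and 20.2%, against 1.13%, 1.81%, 2.02% and 9.49% of erythroid-like cells. In CPM, erythroid-like cells held 1.71, 0.992, 2.16 and 6.90, below the mutant bone cells. Barcodes with 10 to 100 UMIs, which sample free RNA, held Col4a1 at 70.2 CPM in control 1, 37.3 in control 2 and 141 in mutant 2. The summed level of 13 endothelial markers in osteolineage-like cells was 9.53, 19.6, 31.3 and 60.1 CPM, with 5, 6, 3 and 0 of them at 0, and that of 7 mural markers 54.6, 67.4, 139.8 and 135 CPM, with 2, 4, 0 and 0 at 0. In endothelial-like cells the same 13 markers summed to 11639, 10808, 12594 and 12104 CPM. The part of these in the type IV difference was not tested. The Col4a1 to Col4a2 ratio was 1.29 and 0.959 in mutant bone cells and 1.94, 1.65, 1.75 and 1.58 in endothelial-like cells.

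By subtype, Col4a1 rose by 5.45 (SE 0.70, edgeR adjusted p = 0.00329) in mature osteoblast-like cells and by 3.66 (SE 0.36, edgeR adjusted p = 3.85e-21) in Bglap-low bone cells. Its levels were 0.663, 0, 24.3 and 18 CPM in the former and 5.20, 0, 62.8 and 34.4 CPM in the latter, again with no overlap. Neither call passed without control 1 (9.35 and 12.29) or control 2 (4.77 and 3.06). In osteocyte-like cells neither Col4a1 (2.66 ± 1.28, edgeR adjusted p = 0.24) nor Col4a2 (2.91 ± 1.22, edgeR adjusted p = 0.147) passed. The third called network gene was Col10a1, the hypertrophic cartilage gene, at 2.77, 1.87, 5.21 and 13.4 CPM in osteolineage-like cells. It rose by 1.26 (SE 0.42, edgeR adjusted p = 0.0143), did not pass without any 1 library (0.98 to 2.21), and 1 cell gave 26.6% of its UMIs in mutant 2. Barcodes with 10 to 100 UMIs held Col10a1 at 48.9 CPM in control 1, 42.55 in control 2 and 83.75 in mutant 2, and erythroid-like cells held it at 12.9, 0.520, 0 and 26.2 CPM. The bone levels lie below those of the low barcodes in these 3 libraries, and the part of free RNA in the call was not tested.

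Among FACIT collagens, Col20a1 appeared almost only in the mutant libraries. Col20a1 (ENSMUSG00000016356, chr2:180986535-181018363, plus strand) had 1, 0, 311 and 281 UMIs in osteolineage-like cells, or 0.173, 0, 8.18 and 11.0 CPM. The pooled ratio was 63.8 (95% counting interval 11.4 to 2520), and the log2 difference of 5.70 ± 0.77 passed (edgeR adjusted p = 8e-12). The UMIs came from 241 and 185 cells of the mutants, 13.2% and 15.8% of bone cells, against 0% and 0.744% of erythroid-like cells. After thinning these shares were 0.549% and 1.11%, against 0% and 0.0930%. Low barcodes held Col20a1 at 0.3375 CPM in control 1, 0.373 in control 2 and 26.4 in mutant 2. These lie above the bone levels of the same libraries, and the part of free RNA in the call was not tested. Col20a1 was called higher in all 3 subtypes: at 0, 0, 12.2 and 20.8 CPM in mature osteoblast-like cells (at least 12-fold higher, counting 3 UMIs over the controls), at 0, 0, 11.4 and 14.0 CPM in osteocyte-like cells (at least 3.98-fold) and at 0.289, 0, 6.04 and 5.96 CPM in Bglap-low bone cells. The call in osteolineage-like cells was lost without control 1 (10.66), where the only control left had no UMI. Without control 1 the calls in mature osteoblast-like (8.96), osteocyte-like (8.97) and Bglap-low bone cells (9.24) were lost too. Other losses were without control 2 in the first (9.04) and last (4.15), without mutant 1 in osteocyte-like cells (7.89) and without mutant 2 in Bglap-low bone cells (4.36).

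Col12a1, a FACIT collagen of bone surface and ligament, rose more modestly. It stood at 331, 286, 498 and 560 CPM, both mutants above both controls, and rose by 0.62 (SE 0.18, edgeR adjusted p = 0.00513). Col16a1 and Col22a1, which lie at the borders of fibrils and tissues, fell. Col16a1 stood at 37.8, 76.7, 16.9 and 21.7 CPM, both mutants below both controls, and fell by 1.62 (SE 0.22, edgeR adjusted p = 1.23e-11). Col22a1 stood at 362, 319, 153 and 289 CPM and fell by 0.86 (SE 0.19, edgeR adjusted p = 7.42e-05). Without 1 library Col12a1 (0.44 to 0.83) and Col22a1 (-1.18 to -0.50) did not pass, nor did Col16a1 without control 1 (-2.06), mutant 1 (-1.56) or control 2 (-1.21).

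Among the other collagens, Col15a1 was nearly lost from mutant bone cells. Col15a1 (ENSMUSG00000028339, chr4:47208161-47313167, plus strand), a basement membrane zone collagen, stood at 14.0, 31.8, 0.105 and 0.745 CPM, from 81, 34, 4 and 19 UMIs. Both mutants lay below both controls. The pooled ratio was 46.4-fold in favour of controls (95% counting interval 29.5 to 76.1), and Col15a1 fell by 6.15 on the log2 scale (SE 0.45, edgeR adjusted p = 4.92e-39). The call was lost without control 1 (-6.40, edgeR adjusted p = 0.064). In mature osteoblast-like cells it stood at 36.5, 49.9, 0.602 and 1.77 CPM and fell by 5.19 (SE 0.41, edgeR adjusted p = 0.000569), a call that no alternative fit lost.

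The collagen VI chains did not move together. Col6a1 stood at 94.2, 232, 59.7 and 79.8 CPM and Col6a2 at 78.6, 186, 55.0 and 59.8 CPM, with control 2 highest and both mutants below both controls. Col6a1 fell by 1.24 (SE 0.20, edgeR adjusted p = 1.67e-08) and Col6a2 by 1.22 (SE 0.20, edgeR adjusted p = 7.85e-08). Col6a3, the chain that completes the molecule, stood at 93.0, 181, 226 and 236 CPM, both mutants above both controls, and rose by 0.69 (SE 0.19, edgeR adjusted p = 0.00301). Within cluster 2 it was not higher in mutant 1, at 456 against 432 CPM. It rose also in Bglap-low bone cells, from 126 and 113 to 302 and 309 CPM (1.29 ± 0.20, edgeR adjusted p = 3.44e-09), and in osteocyte-like cells (1.24 ± 0.31, edgeR adjusted p = 0.00238). In mature osteoblast-like cells it stood at 39.8, 254, 137 and 145 CPM with overlapping genotypes, control 2 highest, and did not pass (0.39 ± 0.48, edgeR adjusted p = 0.707). The calls of all 3 chains in osteolineage-like cells were lost without any 1 library, where Col6a1 ranged from -1.80 to -0.68, Col6a2 from -1.75 to -0.69 and Col6a3 from 0.30 to 1.08. Its calls in Bglap-low bone cells and osteocyte-like cells were lost without control 1 (1.49 and 4.09), control 2 (1.08 and 0.88) or mutant 2 (1.32 and 1.02).

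Among the transmembrane collagens, Col13a1 and Col25a1 fell and Col23a1 did not pass. Col13a1 stood at 150.2, 187, 71.3 and 171 CPM and fell by 0.77 (SE 0.20, edgeR adjusted p = 0.000768), although mutant 2 overlapped the controls. Col25a1 stood at 22.3, 43.0, 15.3 and 34.1 CPM, also overlapping, with a fall of 0.61 (SE 0.23, edgeR adjusted p = 0.0355) that 9 of 11 alternative fits did not call. Col13a1 did not pass without control 1 (-0.72), mutant 1 (-0.22) or control 2 (-0.58). Col23a1 stood at 1.73, 0.936, 3.76 and 3.65 CPM (1.14 ± 0.59, edgeR adjusted p = 0.158) and Col18a1 at 1.21, 0.936, 0.421 and 0.431 CPM (-1.55 ± 1.0, edgeR adjusted p = 0.277). Neither passed. The remaining tested members, Col4a4, Col4a5, Col8a1, Col9a1 and Col9a3, did not pass either, and none of them was above 9.70 CPM in any library. The 13 members too low to test reached at most 1.91 CPM, in Col26a1 of control 1.

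Some of the genes that fold, export and crosslink collagens fell in mutant bone cells as well. Of 48 genes on 4 lists, 43 were tested in osteolineage-like cells, of which 14 fell and 3 rose (median log2 difference -0.27, against 0.03 over all genes). Among 18 genes of hydroxylation and folding 5 fell and 1 rose, among 5 export genes 4 fell, among 12 genes of trimming and crosslinking 4 fell, and among 8 receptors 2 rose and 1 fell. Adamts2, the protease that removes the N-terminal propeptide of procollagen I, stood at 150.0, 166, 73.2 and 73.1 CPM and fell by 1.26 (SE 0.20, edgeR adjusted p = 7.38e-09). The prolyl hydroxylase gene P4ha2 fell by 0.97 and the collagen chaperone gene Serpinh1 by 0.53. Itga1, a collagen receptor subunit, rose by 1.42 (SE 0.34, edgeR adjusted p = 0.000297). Over all genes 24.0% passed in this class. In mature osteoblast-like cells 0 of 40 passed in edgeR (8 at an unadjusted p under 0.05), where 5.01% of all genes did, in osteocyte-like cells 8 of 41 fell (7.49%), and in Bglap-low bone cells 15 of 42 fell and 2 rose (20.9%). In endothelial-like cells Bmp1, the C-propeptide protease gene, rose (1.25) and Loxl2 (-1.64) and Itga1 (-1.22) fell among 29 tested, where 4.81% of all genes passed.

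In chondrocyte-like cells, 3 members fell and none rose of 13 tested by genotype, where 3.37% of 2195 genes passed. These were the type IX chain genes Col9a2 and Col9a3 and again Col11a2, while Col2a1 and Col9a1 did not pass. Col9a2 stood at 887, 1053, 243 and 178 CPM (-1.87 ± 0.42, edgeR adjusted p = 0.0492) and Col9a3 at 875, 1833, 213 and 246 CPM (-2.15 ± 0.43, edgeR adjusted p = 0.0482). Col11a2 stood at 381, 633, 91.2 and 39.2 CPM (-2.78 ± 0.58, edgeR adjusted p = 0.0482). Both mutants lay below both controls for each of the 3 genes. Col9a1, the third type IX chain, stood at 731, 1450.3, 1135 and 732 CPM with overlapping genotypes (0.17 ± 0.49, edgeR adjusted p = 0.919), so the Col9a1 to Col9a2 ratio was 0.824, 1.38, 4.67 and 4.12. Col2a1 overlapped as well, at 5398, 7458, 5199 and 7913 CPM (0.39 ± 0.45, edgeR adjusted p = 0.756).

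Col10a1 stood at 44447.8, 68334.9, 20228.2 and 21381.9 CPM in chondrocyte-like cells, both mutants below both controls, but did not pass (-1.04 ± 0.74, edgeR adjusted p = 0.54). The comparison rests on 15, 8, 7 and 19 cells. The class markers Acan (2943, 5095, 486 and 476 CPM) and Sox9 (519, 302, 91.2 and 36.6 CPM) were lower in both mutants. So were Hapln1, Comp and Epyc, while Snorc was higher in both, at 3280, 4417, 7581 and 7317 CPM. Matn1 and Matn3 overlapped between genotypes. The part of these markers in the result was not tested. All 3 calls were lost with RLE scaling and with classes taken from clusters. Col9a2 did not pass without control 1 (-1.91), control 2 (-1.67) or mutant 2 (-1.44), nor Col9a3 without control 2 (-1.51).

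In endothelial-like cells, 8 of 13 tested members rose and 1 fell, where 4.81% of 10637 genes passed, and the median was 0.78 against 0.01 over all genes. The basement membrane chains were among them. Col4a1 stood at 3365, 2001, 5759 and 2945 CPM (0.67 ± 0.16, edgeR adjusted p = 0.00146), with 0.78 in batch 1 and 0.56 in batch 2. Col4a2 stood at 1734.5, 1209.5, 3296 and 1870 CPM (0.78 ± 0.16, edgeR adjusted p = 0.000118). For Col4a1, mutant 2 lay between the controls, so the difference shows only within batches. Col15a1 stood at 163, 45.6, 363 and 96.9 CPM (1.11 ± 0.23, edgeR adjusted p = 6.71e-05), Col18a1 at 365, 73.4, 491 and 142 CPM (0.74 ± 0.20, edgeR adjusted p = 0.00797) and Col13a1 at 32.6, 7.74, 51.9 and 23.0 CPM (1.39 ± 0.42, edgeR adjusted p = 0.0222), again with overlap. Col5a2 stood at 65.2, 21.1, 114 and 105 CPM, both mutants above both controls (1.99 ± 0.29, edgeR adjusted p = 8.13e-10). The low barcodes, which sample free RNA, held Col5a2 at 147.8 CPM in control 1, 15.3 in control 2 and 559.8 in mutant 2. These lie above the endothelial-like level in control 1 and mutant 2 and below it in control 2, and mutant 1 had no such barcodes. Erythroid-like cells held less Col5a2 than endothelial-like cells in every library. The part of free RNA in the Col5a2 difference was not tested.

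Col6a3 was the member that fell. It stood at 222, 442, 0 and 96.9 CPM, from 34, 2055, 0 and 892 UMIs, and both mutants lay below both controls (-2.59 ± 0.24, edgeR adjusted p = 1.29e-24). Endothelial-like cells fell into 2 clusters in different proportions by library, and these values move beside the result. Cluster 11, rich in the sinusoid gene Stab2, held 18, 481, 5 and 182 cells, and cluster 9, poor in it, held 8, 66, 40 and 681. Within cluster 11 Col6a3 stood at 337, 511, 0 and 292 CPM and within cluster 9 at 0, 56.6, 0 and 43.2 CPM, so it was higher in the Stab2-rich cells of the 3 libraries that held it. Col4a1 within cluster 9 stood at 6317, 3637, 5773 and 3118 CPM, where the mutant lay below the control in each batch, opposite to the called difference of the whole class. Within cluster 11 it stood at 1825, 1707, 5785 and 2339 CPM, with both mutants above both controls. Col15a1 within cluster 9 stood at 438, 231, 412 and 118 CPM, where the mutant lay below the control in each batch. Col18a1 did so too, at 951, 344, 530 and 157 CPM. Within cluster 11 Col18a1 stood at 59.5, 24.9, 180 and 84.5 CPM, with both mutants above both controls, and Col15a1 at 19.8, 12.4, 0 and 22.3. The part of cluster makeup in the called differences was not tested.

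Col1a1 and Col1a2 were called higher as well (3.57 ± 0.28 and 2.96 ± 0.28), but at 71.7, 17.4, 204 and 304 CPM Col1a1 lay below the level in erythroid-like cells of the same library (163, 62.1, 153 and 1482 CPM) in all libraries but mutant 1. Its level in endothelial-like cells is therefore not read as expression. Without control 2, none of the 9 calls held, with Col4a1 at 0.34, Col4a2 at 0.54, Col15a1 at 0.39, Col5a2 at 0.71, Col6a3 at -1.83, Col1a1 at 1.82 and Col1a2 at 1.01, and Col13a1 (-0.05) and Col18a1 (-0.29) changed sign. Without mutant 1, Col4a1 (0.17), Col4a2 (0.38), Col15a1 (0.40), Col13a1 (1.23) and Col18a1 (-0.26) did not pass. Col4a2 did not pass without control 1 (1.08) and Col13a1 not without mutant 2 (1.98). Without the batch term only Col1a1 passed, and with DESeq2 only Col1a1 and Col1a2.

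**Figure D5:**
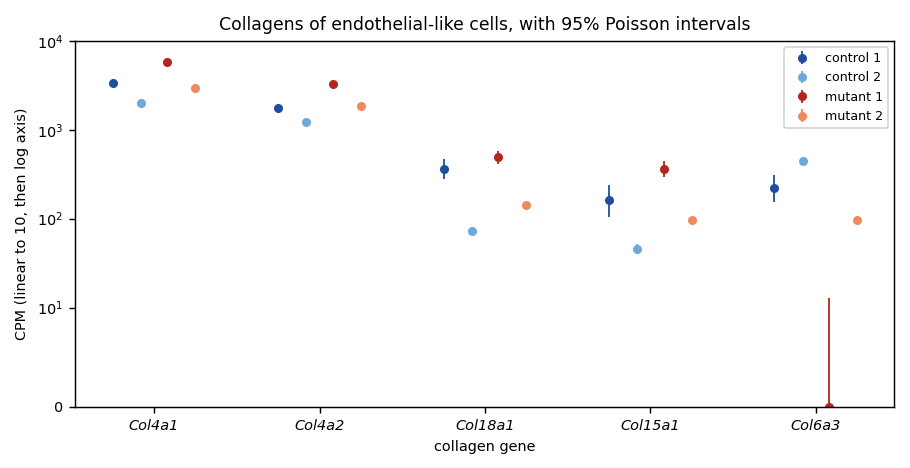
CPM of 5 collagen genes in endothelial-like cells (linear up to 10, then log axis), 1 point per library with 95% Poisson intervals that cover counting error only. Col4a1 is highest in mutant 1 at 5759 CPM and overlaps between genotypes otherwise, while Col6a3 has no UMI in mutant 1.

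The genotype difference itself differed between endothelial-like and osteolineage-like cells for 14 of 27 tested members, 9 with a higher and 5 with a lower value in endothelial-like cells, where 3.40% of 12706 genes passed this interaction test. The widest gaps were in Col22a1 (8.15 ± 1.53) and Col15a1 (7.24 ± 0.55, edgeR adjusted p = 4.46e-24). Over each whole class Col15a1 was lower in mutant bone cells and higher, within batches, in mutant endothelial-like cells. Within endothelial cluster 9 it stood at 438, 231, 412 and 118 CPM, with the mutant below the control in each batch. The part of cluster makeup in this gap was not tested. Over each whole class Col4a1 (-3.0 ± 0.55, edgeR adjusted p = 3.22e-05) and Col4a2 (-2.59 ± 0.52, edgeR adjusted p = 0.000171) rose less in endothelial-like cells. Col6a3 went the opposite way in the 2 classes (-3.11 ± 0.43, edgeR adjusted p = 1.8e-08). Within endothelial cluster 9 Col4a1 stood at 6317, 3637, 5773 and 3118 CPM, with the mutant below the control in each batch. In the Stab2-rich cluster both mutants lay above both controls. In bone cells Col4a1 was close in cluster 8, at 1.24 against 1.58 CPM, and higher in the mutant in clusters 2 and 4. Its thinned share in bone cells of mutant 2 did not exceed that of erythroid-like cells. The part of these in the type IV gaps was not tested. Col15a1, Col4a1 and Col4a2 passed without any 1 library and in every other alternative fit run. Col1a1, Col1a2, Col11a1, Col11a2 and Col22a1 rest on endothelial-like levels near the erythroid-like background, and Col22a1 had 0 UMIs in both control libraries of endothelial-like cells and did not pass without control 2 (8.73) or mutant 2 (8.07). Col6a3 did not pass with DESeq2 (-5.13). Col3a1 and Col10a1 rest on few endothelial-like UMIs, 0, 5, 2 and 19 of Col3a1 and 0, 22, 0 and 13 of Col10a1. Col10a1 stood at 0, 4.73, 0 and 1.41 CPM there against 12.9, 0.520, 0 and 26.2 CPM in erythroid-like cells.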

How the data were processed

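The authors deposited matrices of raw UMI counts (whole numbers, not normalized), per the file headers. The submitters' processing notes name mm10 and Cell Ranger 5.0.1 for control 1 and mutant 1 (batch 1) and 6.1.2 for control 2 and mutant 2 (batch 2). The headers instead give Cell Ranger 4, except in mutant 1, which has 5.0.1. The mutant 1 matrix held 3352 barcodes and the others all barcodes. Gene positions came from GENCODE M21.

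Barcodes needed 1000 UMIs, 500 genes and no more than 10% mitochondrial UMIs, and the top 0.8% per 1000 cells by Scrublet score (scanpy 1.11.5) was removed as doublets (270, 106, 55 and 168 cells). Pairs of libraries shared 2 to 10 cell barcodes. Each cell was scored on marker lists without collagens and assigned to a class at a score of at least 0.5, a lead of at least 0.25 over the next class and at least 3 markers. Bone cells with Mepe and Dmp1 at 5 per 10000 UMIs were called osteocyte-like, those with Bglap and Bglap2 at 50 per 10000 mature osteoblast-like, and the rest Bglap-low, planned as bone progenitor-like cells. Near these gates lay 150 and 154 of 3283 bone cells. Clusters used 2000 variable genes without collagens, 30 principal components, 15 neighbours and Leiden resolution 1 (leidenalg 0.10.2). The median depth of osteolineage-like cells was 22710.5, 23883, 20254 and 20245 UMIs per cell, and that of all kept cells 15058.5, 24080, 16445.5 and 10186.

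UMIs were added up for each class of each library and tested over all genes with edgeR 4.0.16 in R 4.3.3 (TMM, filterByExpr, quasi-likelihood test, Benjamini-Hochberg threshold 0.05), with batch and genotype as terms, or library and class between classes. The script was tested on simulated data. A fit needed 10 cells in every library. For osteocyte-like and chondrocyte-like cells by genotype 5 cells were accepted, a choice made after seeing the data. Alternatives were no batch term, RLE scaling, scaling without collagens, DESeq2 1.42.0, no filter on low counts, classes from clusters, doublets kept, and leaving out each library. Members named with values are those called by genotype in bone or endothelial-like cells, those with the highest mean CPM of each structural group in each class, and their partner chains; pathway genes were listed by role. The members, lists and tests were chosen with earlier results of these data known. Near-identical copies (Bglap and Bglap2) can share reads, and Col4a1 and Col4a2 overlap at their starts, on opposite strands.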

Additional observations from a re-analysis of the deposited data

Results flagged for a closer look

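For 14 collagen genes the difference between mutant and control was not the same in endothelial-like and osteolineage-like cells by a test of that difference itself (edgeR, Benjamini-Hochberg adjustment). Values are the log2 genotype difference in endothelial-like cells minus that in osteolineage-like cells. Among fibrillar genes it was 5.09 for Col11a1, 4.65 for Col1a1, 4.36 for Col3a1, 4.07 for Col1a2, 3.89 for Col11a2, 2.91 for Col5a2 and -2.49 for Col27a1. Among network genes it was -3.75 for Col10a1, -3.0 for Col4a1 and -2.59 for Col4a2. Col22a1 was the FACIT member, at 8.15. The remaining members were Col15a1 at 7.24, Col13a1 at 2.18 and Col6a3 at -3.11. Col10a1 was the closest to the threshold, with an edgeR adjusted p of 0.05 after rounding. The values of Col1a1, Col1a2, Col11a1, Col11a2 and Col22a1 rest on endothelial-like levels near the erythroid-like background. Those of Col3a1 and Col10a1 rest on few endothelial-like UMIs. The values of Col4a1, Col4a2 and Col15a1 are those of whole classes, and the part of cluster makeup in them was not tested.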

How the results depend on the processing

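Counts of called members moved by over 1.5 times in several alternatives, and the cause was not tested. In osteolineage-like cells 23 calls became 11 without the batch term and 1 to 10 when 1 library was left out. In mature osteoblast-like cells 10 became 4 with DESeq2 and 2 to 10 with a library left out. In osteocyte-like cells 12 became 2 without the batch term, 5 with DESeq2, 3 with classes from clusters and 1 to 5 with a library left out. In Bglap-low bone cells 18 became 9 without the batch term and 0 to 9. In endothelial-like cells 9 became 1 without the batch term, 2 with DESeq2 and 0 to 9. In chondrocyte-like cells 3 became 0 with RLE scaling (6 members at an unadjusted p under 0.05), 0 with classes from clusters and 1 to 7. The interaction count of 14 became 6 with DESeq2 and 4 to 14. Fits without a library by genotype also lack the batch term, and the lone library of a genotype is assumed to vary like the others.

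Some named genes changed sign with a library left out. In osteolineage-like cells Col2a1 ranged from -1.06 to 0.042. In osteocyte-like cells Col3a1 ranged from -3.99 to 9.73 (and gave 0.17 with DESeq2), Col24a1 from -1.28 to 0.21 and Col16a1 from -2.06 to 0.49. In Bglap-low bone cells Col3a1 ranged from -1.23 to 0.14 and Col5a3 from -1.85 to 8.60. In endothelial-like cells Col13a1 ranged from -0.052 to 2.02 and Col18a1 from -0.29 to 2.03. In the interaction Col10a1 ranged from -8.49 to 4.67 and Col11a2 from -1.65 to 10.68. Of all values for single members, 1088 kept direction and side of the threshold, 332 kept direction only and 13 changed sign. All 41 share values kept their direction, and their size was not compared with the spread between libraries.

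Over all genes, calls in osteolineage-like cells went from 3076 to 1145 without the batch term and 1107 with DESeq2, and in endothelial-like cells from 512 to 71 and 105. The median over all genes in osteolineage-like cells was 0.03, 0.29 with no filter on low counts and -0.15 with DESeq2. Mature osteoblast-like cells had no cluster class. The stromal comparison, made in controls, and the chondrocyte comparison with bone cells could not be refitted without their own libraries. Replicate numbers only name libraries, but the batch term pairs control 1 with mutant 1 and control 2 with mutant 2, and the counts without it stand above.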

Other observations

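Erythroid-like cells held Col5a1 at 74.1, 67.9, 43.1 and 61.8 CPM in control 1, control 2, mutant 1 and mutant 2, above endothelial-like cells of the same libraries at 6.52, 7.96, 6.92 and 11.8 CPM. Its partner chain gene Col5a2 stood at 4.12, 1.98, 7.91 and 40.5 CPM in erythroid-like cells. Col5a1 thus did not vary across the libraries in the way that Col1a1 did there, at 163, 62.1, 153 and 1482 CPM. This was not tested.

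Chain genes of the same molecule gave several ratios that differed by class in addition to those above. In stromal-like cells the ratio of Col1a1 to Col1a2 UMIs was 0.242, 0.320, 0.782 and 1.06, below the 1.20 to 1.26 of osteolineage-like cells in each library. Col4a1 to Col4a2 was 1.99, 2.27, 2.42 and 1.44 in stromal-like cells. Some of these genes also lie side by side: Col4a4 and Col4a3 start 72 bases apart on chromosome 1, Col4a6 and Col4a5 start 1309 bases apart on chromosome X, and Col3a1 and Col5a2 end 24615 bases apart on chromosome 1.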
